A study of Chlorocebus sabaeus with 45 samples.

Results

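Iron handling in whole blood was followed through 10 genes, TFRC, STEAP3, SLC11A2, SLC25A37, FTH1, FTL, SLC40A1, HMOX1, ACO1 and IREB2, which were taken by symbol from the 33994 genes in the tables. Each symbol had a row, and all 10 passed the filter that left 18753 genes for testing. The samples were whole blood of 15 juvenile male vervets (Chlorocebus sabaeus), wild-born on St. Kitts and each from a different troop, on day 0, day 3 and day 14 after the onset of a stressor, relocation into individual housing, so that every time point had n = 15 and every animal served as its own baseline. The deposited values were FPKM, fragments per kilobase of gene and per 1e6 fragments on genes, and they are given here scaled between libraries by TMM (trimmed mean of M values) unless the sentence says as deposited. Day 0 blood was drawn in the field with ketamine and xylazine as sedatives, whereas dexmedetomidine and midazolam were used at the later draws. Sedation and place therefore cannot be told apart from a difference of either later day from day 0. Every animal was also bled repeatedly, within a weekly volume limit that the paper gives as a guard against anemia and dehydration. More draws came before day 14 than before day 3, so earlier bleeding cannot be told apart from time in any of the comparisons. Its part in the changes was not tested.

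Cells take up iron when the transferrin receptor carries iron-loaded transferrin into an endosome, where a reductase and a divalent metal transporter free the metal into the cytosol. Iron then goes to mitochondria for heme and iron-sulfur clusters, into ferritin for storage, or out of the cell through ferroportin. A pair of RNA-binding iron regulatory proteins holds these steps in balance by stabilizing the transferrin receptor message and blocking ferritin translation when iron is scarce. In blood, immature red cells are the heaviest users of iron, and macrophages and monocytes recycle it from the heme of old red cells.

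Libraries held 13216275 to 31469332 fragments on genes. Without TMM scaling the median log2 fold change over the tested genes was −0.36 for day 14 vs. day 0 and −0.35 for day 14 vs. day 3, against −0.02 with it both times, so changes on day 14 are relative to the typical gene. As deposited, 1460 genes rose and 7830 fell on day 14 vs. day 0, against 3517 and 3239 with TMM. The 4 libraries least like the others (animal 8 on day 3, and animals 15, 11 and 7 on day 0) had median correlations of 0.927 to 0.935 with the other libraries, and calls that changed without them are given below. Blood cell markers fixed as lists had no member at 0 in every library.

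The 10 genes differed widely in level. By median TMM-scaled FPKM on day 0, a measure per length that allows genes to be set side by side, FTL stood at 4557, SLC40A1 at 117, SLC25A37 at 114, FTH1 at 37.4, TFRC at 21.3, IREB2 at 17.3, SLC11A2 at 10.3, HMOX1 at 8.502, ACO1 at 4.92 and STEAP3 at 0.431. FTL ranked 3 among all 33994 genes by median deposited FPKM on day 0 and 5 on day 14, and it drew 0.439% ± 0.251 (SD, n = 15) of all fragments on day 0 and 1.01% ± 0.353 on day 14. The ranges of SLC40A1 and SLC25A37 overlapped over most of their length on day 0 (53.7 to 293 and 47.6 to 423 FPKM). Those of FTH1 and TFRC (19.7 to 125 and 14.2 to 37.4 FPKM) also overlapped, and the FTH1 median lay within the TFRC range. STEAP3 was counted from 15 to 96 fragments per library on day 0, against at least 131 for every other gene here, so its values carry the most counting error.

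**Figure D1:**
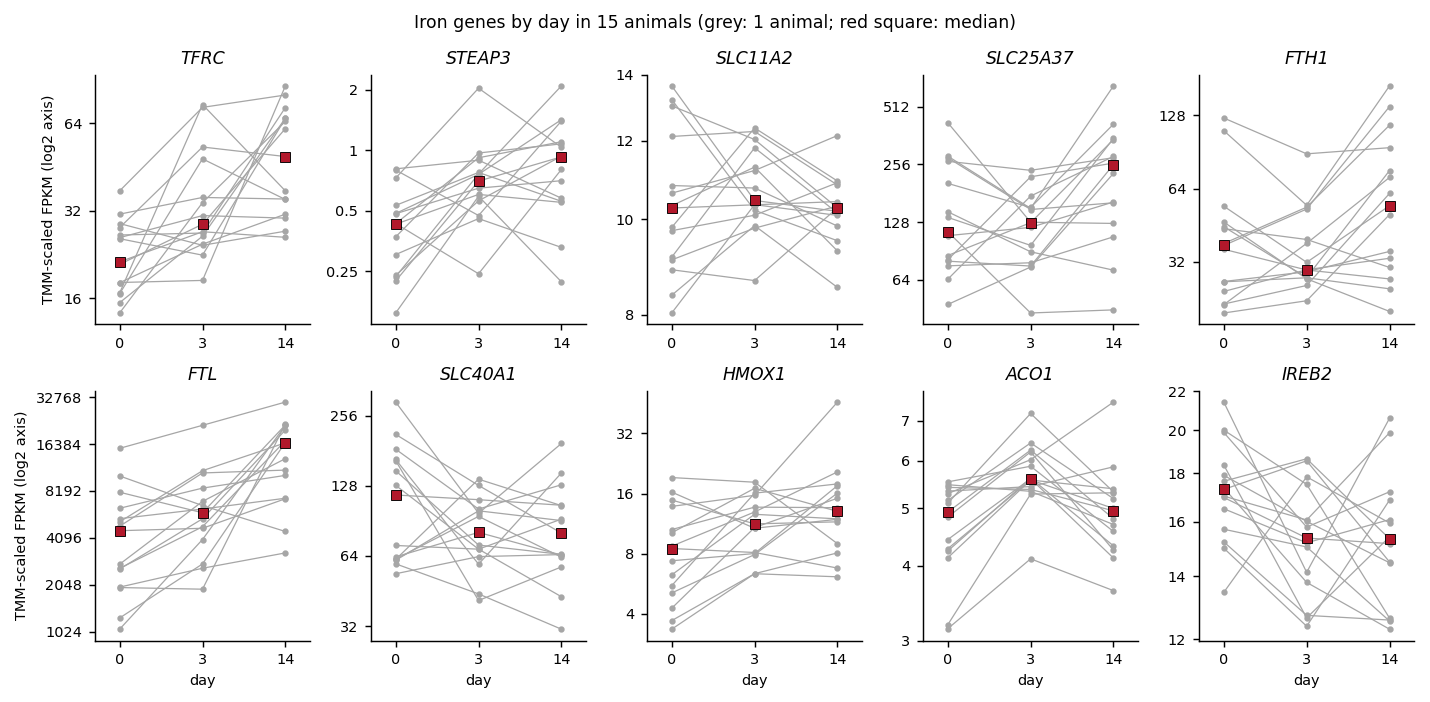
TMM-scaled FPKM on a log2 axis (each panel has its own scale) for the 10 iron genes on days 0, 3 and 14. Grey lines join the 3 samples of an animal and red squares are medians over 15 animals. The medians of TFRC, STEAP3, FTL and HMOX1, the 4 genes called higher on day 14 vs. day 0, lay above those of day 0, as did those of SLC25A37 and FTH1 and, by little, ACO1 and SLC11A2, and the time points overlapped in every gene.

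On day 3 vs. day 0, 3 of the 10 genes passed an adjusted p-value of 0.05 (limma, Benjamini-Hochberg over all tested genes), TFRC, STEAP3 and ACO1, and all 3 rose. The background was 12.2% of all tested genes, 6.01% called higher and 6.19% called lower. The median log2 fold change of the 10 genes was 0.17, against 0.01 over all tested genes. These day 3 calls were close to the threshold: the number fell to 1 with size factors by the median of ratios or with no filter on low genes, and in fits without 1 animal it lay between 0 and 3. It was 0 without animal 2, 6, 7 or 11 and 1 without animal 3, 5 or 9, and in the 4 fits with 0 limma still gave an unadjusted p under 0.05 for 3 to 5 of the 10.

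On day 14 vs. day 0, 4 of the 10 genes were called, TFRC, STEAP3, FTL and HMOX1, again all higher, where 36.0% of all tested genes were called, 18.8% higher and 17.3% lower. The median log2 fold change of all 10 was 0.58, against −0.02 over all tested genes. The direction depended on the scaling: as deposited, 6 genes were called, with TFRC, STEAP3 and FTL higher and SLC11A2, SLC40A1 and IREB2 lower (49.5% of all tested genes called). With the animal as a block, the calls were the 4 genes plus SLC25A37 and FTH1 (44.0% of all tested genes). On day 14 vs. day 3, FTL alone was called, with a background of 13.4% of tested genes, 8.38% higher and 5.01% lower. With the animal as a block it was 4 genes, FTL, SLC25A37 and FTH1 higher and ACO1 lower (23.7% of all tested genes). As deposited it was also 4, FTL higher and SLC11A2, ACO1 and IREB2 lower (38.4%). Both comparisons with day 0 share its 15 samples.

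**Figure D2:**
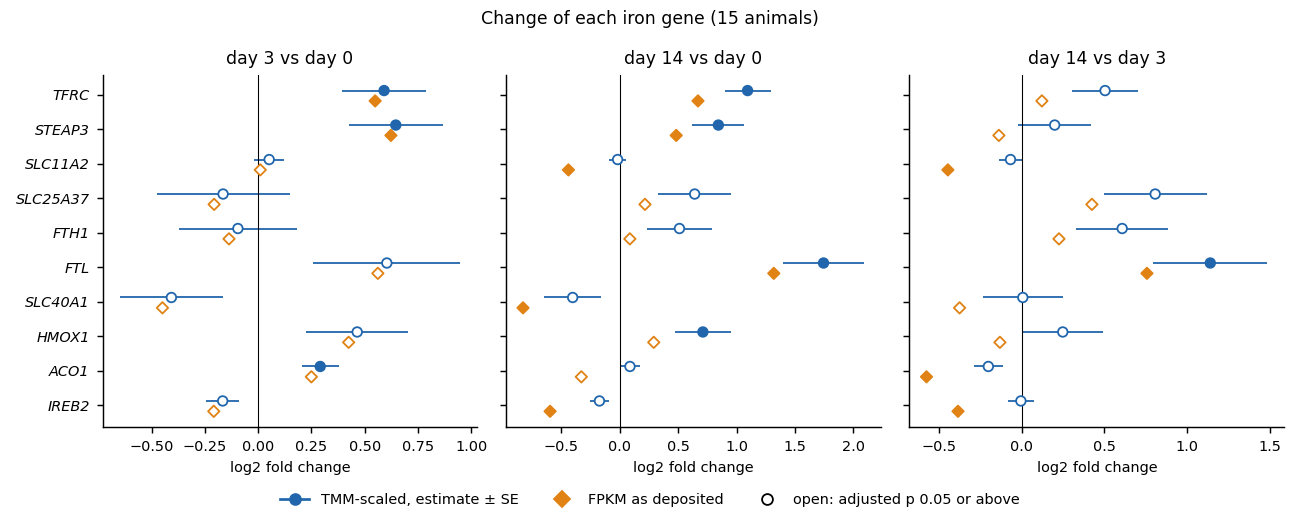
Log2 fold changes of the 10 iron genes in the 3 comparisons. Blue circles are TMM-scaled values with SEs from limma, orange diamonds are FPKM as deposited, and filled symbols have an adjusted p under 0.05. On day 14 the diamonds lie to the left of the circles in every gene, which puts SLC40A1 at −0.83 as deposited and −0.40 with TMM.

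TFRC, the transferrin receptor that brings iron into the cell, rose at both later time points. Its TMM-scaled FPKM ranged from 14.2 to 37.4 with a median of 21.3 on day 0, from 18.4 to 74.2 with a median of 28.7 on day 3, and from 25.9 to 86.0 with a median of 49.1 on day 14. The highest day 0 sample was exceeded by 8 of 15 animals on day 14 and by 4 on day 3, so the time points overlapped. The log2 fold change was 0.59 on day 3 (standard error, SE, 0.20, adjusted p = 0.0408 from limma, higher in 13 of 15 animals) and 1.09 on day 14 (SE 0.20, adjusted p = 3.51e-05, higher in 14). Animal 13 was the exception on day 14. In bulk blood, a higher share of the cells that express a gene and more RNA per cell cannot be told apart. The day 3 call was lost without any of animals 2, 3, 5, 6, 7, 9, 11 and 14 (adjusted p up to 0.115), whereas the day 14 call held in all 15 such fits and was 0.67 as deposited (adjusted p = 8.86e-05). Between day 3 and day 14, TFRC changed by 0.50 (adjusted p = 0.0766, higher in 9 animals), which crossed the threshold only without animal 6 (0.0333).

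STEAP3, the endosomal reductase that prepares iron for transport in red cell precursors, was scarce and was also called higher on both later days. Its TMM-scaled FPKM ran from 0.155 to 0.809 with a median of 0.431 on day 0, from 0.243 to 2.04 with a median of 0.703 on day 3, and from 0.221 to 2.10 with a median of 0.928 on day 14. These medians climbed, while the lowest animal stayed near 0.2 at each time point. As deposited, the medians were 0.445, 0.701 and 0.684. The log2 fold change was 0.65 on day 3 (SE 0.22, adjusted p = 0.0472, higher in 13 animals) and 0.84 on day 14 (SE 0.22, adjusted p = 0.00255, higher in 14). The day 3 call was lost when any of animals 1 to 12 was left out (adjusted p up to 0.0893) and with 1 in place of 0.1 as the pseudocount (0.0765). The day 14 call held in all 15 of these fits (adjusted p up to 0.0114), and the fold was 0.48 as deposited (limma adjusted p = 0.0333). Day 14 differed from day 3 by 0.20 (limma adjusted p = 0.579), and by −0.14 as deposited (0.571).

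SLC11A2, the divalent metal transporter DMT1 that acts next in the endosome, stayed within a narrow range after TMM scaling. Its FPKM ranged from 8.04 to 13.6 on day 0, from 8.67 to 12.4 on day 3 and from 8.53 to 12.2 on day 14, with medians of 10.3, 10.4 and 10.3. The log2 differences were 0.05 on day 3 and −0.02 on day 14 (adjusted p = 0.708 and 0.868), with SEs of 0.07. As deposited it fell on day 14 vs. day 0 by 0.44 (adjusted p = 0.00352), close to the shift of all genes on that scale. Of the 3 uptake genes, TFRC and STEAP3 were called on both later days and SLC11A2 on neither, and the differences between the genes were not tested.

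SLC25A37, or mitoferrin, carries iron into mitochondria and supplies heme synthesis in red cell precursors. Its TMM-scaled FPKM spanned 47.6 to 423 on day 0 with a median of 114, 43.0 to 238 on day 3 with a median of 127, and 44.6 to 658 on day 14 with a median of 256. The animals moved apart on day 14, with 8 above the highest day 3 sample and animals 4 and 13 below 72 FPKM. The log2 difference was 0.64 on day 14 vs. day 0 (SE 0.31, adjusted p = 0.103, higher in 11 animals) and 0.81 vs. day 3 (0.31, adjusted p = 0.0724, higher in 13). With the animal as a block both passed (adjusted p = 0.0427 and 0.0237). The day 14 difference from day 0 also passed without animal 4 or 11 (down to 0.0378) and without the 4 least alike libraries (0.96, adjusted p = 0.0145), and that from day 3 without animal 4 (0.0464). With the RNA integrity number as a further covariate in the blocked fit neither passed, with differences of 0.57 and 0.77 (adjusted p = 0.241 and 0.0794). As deposited the differences were smaller, 0.22 and 0.42 (limma adjusted p = 0.43 and 0.13).

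FTL, the ferritin light chain, had the largest log2 fold change of the 10, on day 14. Its TMM-scaled FPKM ran from 1064 to 15383 with a median of 4557 on day 0, from 1921 to 21611 with a median of 5940.1 on day 3, and from 3283 to 30460 with a median of 16685 on day 14. The baseline alone spanned more than a factor of 10, and 8 day 14 samples exceeded its top. The log2 fold change was 1.74 on day 14 vs. day 0 (SE 0.35, adjusted p = 1.20e-04 from limma) and 1.14 vs. day 3 (0.35, adjusted p = 0.0262), higher in 14 of 15 animals both times. Animal 13 went the other way, from 10229 on day 0 through 6606 to 4505 on day 14. On day 3 the difference from day 0 was 0.60 (adjusted p = 0.271, higher in 12 animals). The step from day 3 to day 14 lost its call without animal 3, 8, 9, 12 or 14 (adjusted p up to 0.0901) and with RNA integrity as a covariate (1.08, adjusted p = 0.0641), but passed with block and covariate together (1.01, adjusted p = 0.0362). The change from day 0 to day 14 kept its call under every alternative run.

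FTH1, the ferritin heavy chain that oxidizes iron for storage, stood about 2 orders of magnitude below its partner. Its TMM-scaled FPKM ran from 19.7 to 125 with a median of 37.4 on day 0, from 22.2 to 88.9 with a median of 29.7 on day 3, and from 20.04 to 169 with a median of 54.4 on day 14. Animals 7 and 15 were the highest on days 0 and 3, and on day 14 animals 15, 12 and 9 were (169, 139 and 117 FPKM), of which 12 and 9 had been near the median on day 0 (37.4 and 38.1 FPKM). Animal accounted for 61.1% of the variance of the log2 values and time point for 11.03%. The log2 difference was 0.51 on day 14 vs. day 0 (SE 0.28, adjusted p = 0.149, higher in 10 animals) and 0.61 vs. day 3 (0.28, adjusted p = 0.129, higher in 11). With the animal as a block these passed (adjusted p = 0.0283 and 0.0209), and the first also passed without the 4 least alike libraries (0.77, adjusted p = 0.0234). Neither passed when the RNA integrity number was added to the block (0.31 and 0.50, adjusted p = 0.403 and 0.112), nor as deposited (0.09 and 0.22, limma adjusted p = 0.75 and 0.42). Ferritin genes have many near-identical processed copies, and how fragments aligned to several places were handled is not given in the sources used here, so the levels of FTH1 and FTL are uncertain. The 3 genes whose pattern over the 45 samples was most like that of FTH1 (Pearson r 0.836 to 0.855) were all entries that RefSeq types as pseudogenes, LOC103232921, LOC103232730 and LOC103219873, and the gene most like FTL (r 0.983), LOC103225074, was another.

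SLC40A1, or ferroportin, the exporter that returns iron from cells to plasma, stood beside SLC25A37 in level on day 0 and below it on the later days in median. Its TMM-scaled FPKM ran from 53.7 to 293 with a median of 117 on day 0, from 41.2 to 137 with a median of 80.8 on day 3, and from 31.04 to 195 with a median of 80.3 on day 14. Of the 15 animals, 9 were lower on day 14 than on day 0, and 2 lay below the lowest day 0 sample. The log2 differences from day 0 were −0.41 on day 3 and −0.40 on day 14 (SE 0.24, adjusted p = 0.295 and 0.199). As deposited, the day 14 difference was −0.83 and passed the test (adjusted p = 3.10e-04), which is a larger fall than the shift of −0.36 of the median gene on that scale.

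HMOX1, the stress-induced heme oxygenase that frees iron from heme, ranged in TMM-scaled FPKM from 3.36 to 19.3 with a median of 8.502 on day 0, from 6.36 to 18.2 with a median of 11.3 on day 3, and from 6.14 to 45.9 with a median of 13.04 on day 14. The 45.9 belonged to animal 15, and the next highest day 14 sample was 20.6. The log2 fold change was 0.46 on day 3 (adjusted p = 0.215) and 0.71 on day 14 (SE 0.24, adjusted p = 0.0178), higher in 11 animals each time and lower in animals 4, 10, 11 and 13. The day 14 call was lost with RNA integrity as a covariate (0.41, adjusted p = 0.316), with block and covariate together (0.51, adjusted p = 0.120), as deposited (0.29, adjusted p = 0.240), and without animal 6 or 12 (adjusted p up to 0.0537). RNA integrity rose with the time point.

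ACO1 and IREB2 encode the iron regulatory proteins IRP1 and IRP2, of which the first doubles as a cytosolic aconitase. ACO1 ran from 3.14 to 5.53 TMM-scaled FPKM with a median of 4.92 on day 0, from 4.11 to 7.20 with a median of 5.60 on day 3, and from 3.64 to 7.53 with a median of 4.95 on day 14. It rose on day 3, when 10 animals exceeded the highest day 0 sample, against 2 on day 14. The log2 fold change on day 3 was 0.29 (SE 0.09, adjusted p = 0.0233, higher in 13 animals), and the step from day 3 to day 14 was −0.20 (adjusted p = 0.106, lower in 12 animals), which passed with the animal as a block (0.0353) and without animal 10 (0.0409) but not with RNA integrity as a covariate (−0.19, adjusted p = 0.193) or with both block and covariate (−0.19, adjusted p = 0.119). The day 3 call was lost without animal 2, 6, 7 or 11 (adjusted p up to 0.0537), without the 4 least alike libraries (0.17, adjusted p = 0.176) and as deposited (0.25, adjusted p = 0.484).

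IREB2 ran from 13.5 to 21.4 TMM-scaled FPKM with a median of 17.3 on day 0, from 12.4 to 18.7 with a median of 15.4 on day 3, and from 12.3 to 20.6 with a median of 15.3 on day 14. It was lower in 12 of 15 animals at both later time points. The log2 differences of −0.17 had SEs of 0.08 and did not pass the test (adjusted p = 0.167 on day 3 and 0.0804 on day 14). The day 14 difference passed without animal 5, 10 or 13 (down to 0.0220), with genes above 1 FPKM only (−0.22, adjusted p = 0.02235), with no filter (−0.20, adjusted p = 0.0471) and as deposited (−0.60, adjusted p = 3.41e-04). It was −0.05 with RNA integrity as a covariate (adjusted p = 0.738).

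Ratios of 2 genes within a library do not depend on the scaling between libraries, so 5 of them were compared within animals with an exact sign-flip test (two-sided) on log2 ratios of deposited FPKM, adjusted over 15 tests. The rows of the ferritin chains moved apart, and the uncertainty from near-identical copies given above holds for this ratio too. The log2 ratio of FTH1 to FTL went from −6.63 ± 0.95 (SD, n = 15) on day 0 to −7.33 ± 0.93 on day 3 and −7.86 ± 0.68 on day 14. It was lower in 15 of 15 animals at both later time points (exact sign-flip adjusted p = 4.58e-04, from the smallest p that 15 animals can give, 6.1e-05) and fell again by 0.53 between them (adjusted p = 0.00847, lower in 11).

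The ratio of TFRC to SLC40A1, an importer against the exporter, rose from −2.26 ± 0.86 on day 0 to −1.26 ± 0.57 on day 3 and −0.76 ± 0.47 on day 14. The gain was 0.999 on day 3 (exact sign-flip adjusted p = 0.00385, 12 of 15 animals) and 1.497 on day 14 (adjusted p = 9.16e-04, 14 of 15). In bulk blood, a changed mix of cells and a change within cells cannot be told apart in this ratio, and iron flux was not measured. The further gain of 0.50 from day 3 to day 14 (adjusted p = 0.0314, 11 animals) was lost without animal 3, 8, 9, 12, 14 or 15 (adjusted p up to 0.0629). The ratio of TFRC to FTH1, the scarcer ferritin chain here, rose by 0.69 on day 3 (adjusted p = 0.00534, 13 animals) and by 0.58 on day 14 (adjusted p = 0.00847, 12 animals). It differed by −0.10 between days 3 and 14 (adjusted p = 0.687). FTL, the more abundant ferritin RNA, rose by 1.74 from day 0 to day 14, against 1.09 for TFRC. A ratio of TFRC to FTL was not tested.

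The ratio of IREB2 to ACO1 stood at 1.87 ± 0.38 on day 0, 1.41 ± 0.24 on day 3 and 1.61 ± 0.35 on day 14. Against day 0 it fell by 0.46 on day 3 (exact sign-flip adjusted p = 0.00229, lower in 13 of 15 animals) and by 0.27 on day 14 (adjusted p = 0.0201, lower in 12). The difference of 0.19 between days 14 and 3 did not pass (adjusted p = 0.118), except without animal 10 (0.0496). The ratio of SLC25A37 to its widely expressed relative SLC25A28 was 3.33 ± 0.80 on day 0 and 3.43 ± 0.82 on day 3, and reached 4.28 ± 1.22 on day 14. The rise from day 0 was 0.96 (adjusted p = 0.0273, 10 animals), lost without animal 3 or 15 (adjusted p up to 0.0534), and that from day 3 was 0.86 (adjusted p = 0.0236, 11 animals). SLC25A28 itself fell on day 14 vs. day 0 (log2 fold change −0.32, limma adjusted p = 0.0263, lower in 12 animals), while the difference of 0.64 in SLC25A37 was not called (adjusted p = 0.103).

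**Figure D3:**
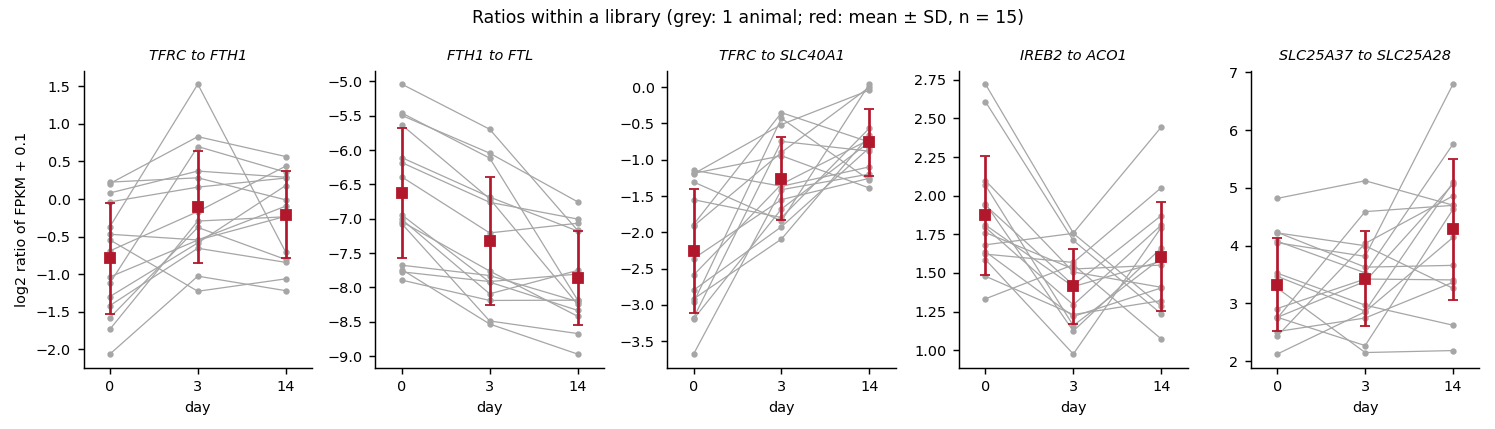
Log2 ratios of deposited FPKM (0.1 added) within each library for 5 pairs of genes on days 0, 3 and 14. Grey lines join the samples of an animal and red squares with bars are the mean ± SD of 15 animals. The ratio of FTH1 to FTL falls in every animal from day 0 to day 3, and that of TFRC to SLC40A1 rises in 14 of 15 from day 0 to day 14.

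The neighbouring genes of iron and heme handling were taken from a list of 47, of which 45 had a row and 38 were tested. The row of 2 of them stood under an older symbol, as for erythroferrone (FAM132B). Those below the filter were FTMT, HAMP, HFE2, HPX, STEAP1, STEAP2 and TF. On day 3 vs. day 0, 9 of the 38 were called (6 higher and 3 lower), where 12.2% of all tested genes were, and 14 with the animal as a block, where 19.2% of all were. Day 14 gave 19 calls against day 0 (14 higher and 5 lower, 36.0% of all genes) and 6 against day 3 (4 higher and 2 lower, 13.4% of all genes), or 11 with the block (23.7% of all genes). As deposited, the day 14 split was 9 higher of 24 called vs. day 0 (49.5% of all genes called) and 4 higher of 19 called vs. day 3 (38.4% of all). The median log2 fold change of the list on day 14 vs. day 0 was 0.02, against −0.02 over all tested genes.

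Of the 9 tested uptake genes, 2 rose and 2 fell on day 14 vs. day 0, where 36.0% of all genes were called. As deposited the split was 2 higher and 5 lower, where 49.5% of all were called. TFR2, a second transferrin receptor that senses iron in red cell precursors and liver, rose from 0.509 ± 0.391 TMM-scaled FPKM (SD, n = 15) on day 0 to 1.85 ± 1.39 on day 3 and 3.02 ± 2.37 on day 14, a log2 fold change of 2.22 on day 14 (SE 0.37, adjusted p = 1.51e-05 from limma, higher in 14 animals). SNX3, a sorting protein that recycles the transferrin receptor, rose from 304 ± 231 to 1111 ± 591 FPKM on day 14 (a log2 change of 1.95, adjusted p = 2.50e-05) and was also among the genes most like FTL. STEAP4, a metalloreductase related to STEAP3 and abundant in myeloid cells, fell from 383 ± 248 FPKM to 144 ± 70.3 on day 3 and 117 ± 52.2 on day 14 (log2 fold change −1.56 on day 14, SE 0.31, adjusted p = 1.34e-04, lower in 14 animals). The other fall was that of EXOC6 (−0.40, adjusted p = 0.0401), an exocyst subunit in transferrin recycling, which lost its day 14 call with RNA integrity as a covariate (−0.36, adjusted p = 0.181) and with block and covariate together (−0.44, adjusted p = 0.122), at folds of like size. EXOC6 was lower in 15 of 15 animals on day 3 (−0.66, adjusted p = 0.00481) and is named here after its values were seen.

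In storage, NCOA4, the receptor that delivers ferritin to lysosomes for iron release, rose from 1492 ± 1199 FPKM on day 0 to 5687.5 ± 3001 on day 14 (log2 fold change 2.13, SE 0.39, adjusted p = 4.08e-05, higher in 15 of 15 animals) and by 1.12 from day 3 (adjusted p = 0.0468). The latter call was lost with RNA integrity as a covariate (1.08, adjusted p = 0.0952) and passed with the block (0.00721) and with both (1.06, adjusted p = 0.0341). Of the 4 storage genes 3 were called higher on day 14 vs. day 0, against 18.8% of all genes. As deposited NCOA4 alone stayed higher and HERC2, a ubiquitin ligase that acts on NCOA4 and is named after its values were seen, was called lower (−0.52, adjusted p = 0.0149, against −0.10 and 0.506 with TMM). FBXL5, the iron-sensing ubiquitin ligase subunit that marks IRP2 for degradation, fell from 122 ± 96.5 FPKM to 43.1 ± 15.004 on day 3 and 37.6 ± 9.21 on day 14. Its log2 fold changes were −1.21 (adjusted p = 0.00139) and −1.37 (adjusted p = 2.50e-05), lower in 13 and 14 animals.

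Among export genes and their regulators, HEPH, a ferroxidase that works with ferroportin, was near the floor but rose from 0.0868 ± 0.0548 FPKM to 0.228 ± 0.0882 by day 14 (log2 fold change 0.82, adjusted p = 1.44e-04, higher in 14 animals), where the added 0.1 shrinks the fold. FAM132B, the hormone by which red cell precursors lower hepcidin, went from 0.240 ± 0.528 FPKM to 1.23 ± 1.26 on day 14 (log2 fold change 1.85, SE 0.53, adjusted p = 0.00547, higher in 13 animals).

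Of 9 genes of mitochondrial iron and iron-sulfur clusters, 4 rose and 1 fell on day 14, where 36.0% of all tested genes were called, and as deposited 2 were called higher and 5 lower, where 49.5% of all were. GLRX5, a glutaredoxin for iron-sulfur cluster assembly, rose from 136 ± 119 FPKM to 369 ± 243 on day 3 and 781 ± 487 on day 14, log2 fold changes of 1.67 (adjusted p = 0.00481, 15 of 15 animals) and 2.73 (adjusted p = 2.20e-06, 14 animals). ABCB10, which stabilizes mitoferrin in the inner mitochondrial membrane, rose from 25.5 ± 4.47 to 56.2 ± 18.5 FPKM by day 14 (log2 fold change 1.08, SE 0.15, adjusted p = 1.17e-06, 15 of 15 animals). Of 9 tested heme genes, 3 were called higher and 1 lower on day 14, near the 36.0% of all genes, with a median log2 fold change of −0.001. As deposited 2 were higher and 2 lower, near the 49.5% of all genes. BLVRB, biliverdin reductase B, rose from 229 ± 156 to 1161 ± 828 FPKM (log2 fold change 2.35, adjusted p = 1.59e-05, 13 animals). SLC48A1, a heme transporter, rose from 7.601 ± 5.06 to 25.5 ± 15.2 FPKM (1.76, adjusted p = 1.42e-05, 14 animals). The gene called lower was FLVCR2, a transporter of the FLVCR family named after its values were seen (−0.78, adjusted p = 0.00682). LCN2, the siderophore-binding protein of neutrophils, differed by −1.94 on day 14 (SE 0.82, adjusted p = 0.0590, lower in 10 animals) and passed with the animal as a block (0.0278) but not with RNA integrity as a covariate (−1.45, adjusted p = 0.317) or with both (−1.96, adjusted p = 0.138).

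**Figure D4:**
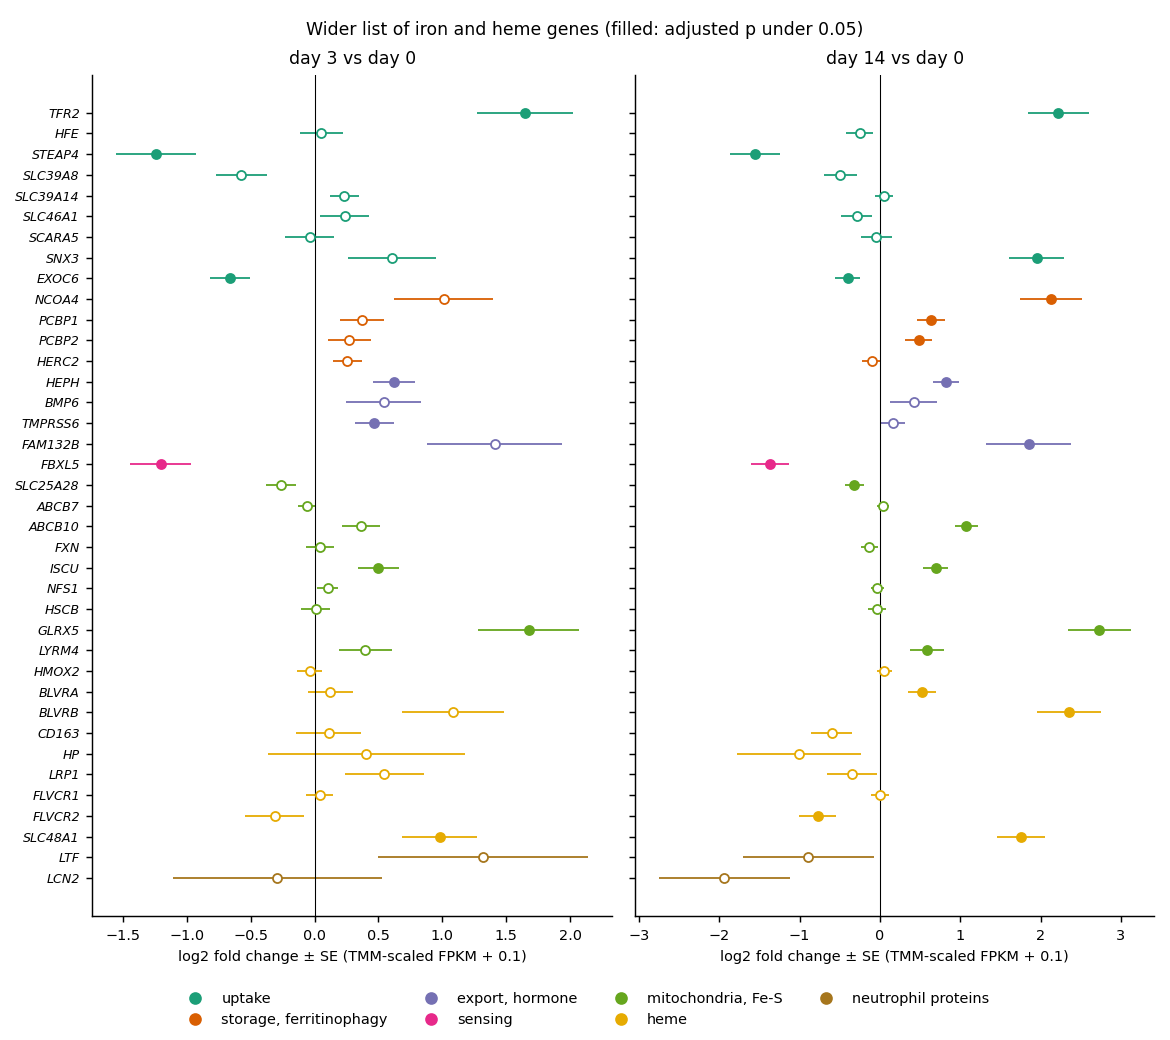
Log2 fold changes with SEs (limma, TMM-scaled FPKM + 0.1) of the 38 tested genes of the wider list on day 3 and day 14 vs. day 0, coloured by role. Filled circles have an adjusted p under 0.05: 9 genes on day 3 and 19 on day 14, where GLRX5 lies furthest right at 2.73.

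Over the 45 samples the 10 genes fell into few close pairs, which is a description of libraries that share animals, time points and scaling. TFRC and FTL were the closest (Pearson r 0.866 of the log2 values), followed by SLC25A37 with FTL (0.667), TFRC with STEAP3 (0.646) and FTH1 with SLC25A37 (0.630). ACO1 ran against SLC40A1 (−0.501) and IREB2 was tied to none of the others by more than 0.316 in size, the value for its negative relation to ACO1. Among all tested genes, those most like TFRC were XPO7, SLC16A1 and ATG14 (r 0.935 to 0.945), and those most like STEAP3 were TBC1D22A, TMCC2 and TLN2 (0.774 to 0.796). FTL had SNX3 and SERF2 (both 0.979) beside the pseudogene entry named above, SLC25A37 had USP32, PIM1 and AFF1 (0.884 to 0.893), and SLC40A1 had SOD2, SERPINE2 and RALB (0.875 to 0.889). The nearest to HMOX1 was TSPYL1 (0.774), to ACO1 DNAJA3 (0.802), to IREB2 WIPF1 (0.793) and to SLC11A2 CD82 (0.639). Time point accounted for 41.4% of the variance of TFRC and 37.1% of that of FTL, but for 7.72% of that of SLC40A1 and 2.98% of that of SLC11A2.

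Blood cell markers were followed over the time points as well. Against day 0, 12.2% of all tested genes were called on day 3, 6.01% higher and 6.19% lower. On day 14 it was 36.0%, 18.8% higher and 17.3% lower, or 49.5% as deposited. With the animal as a block the shares were 19.2% on day 3 and 44.0% on day 14. The parts of the monocyte and platelet lists called on day 14 lay near that 36.0%. All 10 red cell markers, which include ALAS2, the first enzyme of heme synthesis in red cells, rose on day 14 vs. day 0 and 6 rose on day 3. Their summed deposited FPKM ran from 702 to 22427 with a median of 6125 on day 0, from 5401 to 30297 with a median of 15998 on day 3, and from 10572 to 38194 with a median of 28579 on day 14. All 7 tested neutrophil markers fell on day 14, with medians of their sum of 665, 400.3 and 276 FPKM, ranging from 265 to 2609 on day 0 and from 108 to 410.1 on day 14. Of the 8 monocyte markers 3 fell on day 14, with medians of their sum of 4532 FPKM on day 0 and 2080 on day 14 (2282 to 34401 and 1660.3 to 5454). On day 3, 2 monocyte markers were called higher. Of the 6 platelet markers 6 rose on day 3 and 2 on day 14, with medians of their sum of 622, 2165 and 1319 FPKM (280 to 4131 on day 0, 731 to 4234 on day 3 and 408 to 2267 on day 14). Of the 6 NK cell markers 4 rose on day 14, KLRF1, KLRD1, PRF1 and NKG7, with medians of their sum of 129 FPKM on day 0 and 180.2 on day 14 (56.6 to 204 and 80.8 to 498). None of the 4 B cell markers was called on day 14 vs. day 0 (limma, 1 at an unadjusted p under 0.05), while 3 were called lower as deposited, and the medians of their sum were 325, 306 and 143 FPKM. Of the 5 T cell markers 1 rose on day 14, CD3D (0.61, adjusted p = 0.00870), which did not pass with RNA integrity as a covariate (0.50, adjusted p = 0.106), and as deposited CD3E alone was called, lower (−0.59, adjusted p = 0.0225). With the animal as a block, 9 red cell markers rose and 6 neutrophil markers fell on day 3, and on day 14 the calls in these lists were 4 platelet, 5 NK cell and 2 T cell markers higher and 4 monocyte markers and 1 B cell marker lower, beside the red cell and neutrophil markers, all of which were called as without the block.

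With RNA integrity as a covariate, 19.9% of all tested genes were called on day 14 vs. day 0, 2206 higher and 1524 lower of 18753. All 10 red cell and 4 NK cell markers were still called higher in that fit, and of the 7 neutrophil markers 2 were called lower, MGAM and PROK2. The monocyte and platelet calls were lost with folds of like size. S100A9 went from −1.46 to −1.33 (adjusted p = 0.103), CD14 from −0.77 to −0.61 (0.0531), VCAN from −0.70 to −0.55 (0.130), PPBP from 1.27 to 1.09 (0.0769) and TUBB1 from 0.80 to 0.81 (0.0991). Block and covariate together called 21.7% of all tested genes. In that fit CD14, S100A9 and PPBP passed again (adjusted p = 0.0283, 0.0351 and 0.0126), as did the neutrophil markers CSF3R, CXCR1 and CXCR2 (0.0317, 0.0144 and 0.0187).

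The change of each of the 10 genes from day 0 to day 14 was set beside the mean log2 change of each of 7 marker lists over the 15 animals, 70 relations chosen after the data were seen, with two-sided permutation p-values adjusted over the 70. The gene and the markers of an animal come from the same libraries and share their scaling, so r is also given for values as deposited. Those values still share the total of the library, so they are not free of this link either. TFRC rose most where the red cell markers rose most (Pearson r = 0.941, Spearman rho = 0.932, adjusted permutation p = 3.5e-04 for both, raw p = 1e-05, the smallest these permutations can give). Without the 2 animals farthest from the median of the markers r was 0.917, and as deposited it was 0.810. FTL had r = 0.944 and rho = 0.946 with the same adjusted p-values, 0.960 without the 2 animals and 0.916 as deposited. Animal 13, in which TFRC and FTL were lower on day 14, was also the animal whose red cell markers were lower.

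FTH1 (r = 0.757, rho = 0.814, adjusted permutation p = 0.0125 and 0.00770) and HMOX1 (0.685, 0.729, adjusted permutation p = 0.0333 and 0.0212) also passed against the red cell markers, with r of 0.816 and 0.697 without the 2 farthest animals. As deposited their r was 0.530 and 0.387. STEAP3 had r = 0.387 and rho = 0.314 (adjusted permutation p = 0.292 and 0.409), and SLC25A37 0.566 and 0.639 (0.0942 and 0.0538), with r of −0.02 and 0.279 as deposited. SLC11A2 and ACO1 had r of 0.128 and −0.158 (rho 0.236 and −0.125, adjusted permutation p for r of 0.722 and 0.673), and −0.717 and −0.570 as deposited. IREB2 had r = −0.484 and rho = −0.682 (adjusted permutation p = 0.167 and 0.0368), and its r was −0.538 without the 2 farthest animals and −0.844 as deposited.

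SLC40A1 had an r of 0.422 with the red cell markers (rho 0.425, adjusted permutation p = 0.247 and 0.224), which turned to −0.170 as deposited. With the neutrophil markers its r was 0.817 (rho 0.868, adjusted permutation p = 0.00677 and 0.00163), 0.746 without the 2 farthest animals and 0.778 as deposited, and the difference between these correlations was not tested. With the monocyte markers it was 0.746 (rho 0.732, adjusted permutation p = 0.0194 and 0.0212), 0.754 without the 2 farthest animals and 0.564 as deposited. SLC25A37 also passed with the monocyte markers (r 0.726, rho 0.671, adjusted permutation p = 0.0219 and 0.0368, 0.781 without the 2 farthest animals, 0.359 as deposited) and SLC11A2 with the platelet markers (r 0.725, rho 0.746, adjusted permutation p = 0.0194 and 0.0205, 0.888 without the 2 farthest animals, 0.272 as deposited). With the B cell markers FTH1, FTL and SLC40A1 had r of −0.803, −0.776 and −0.708 (rho −0.764, −0.750 and −0.671, adjusted permutation p = 0.0105, 0.0109 and 0.0292 for r), −0.828, −0.806 and −0.776 without the 2 farthest animals, and −0.719, −0.815 and −0.39 as deposited. By rho alone, SLC25A37 also passed with the neutrophil markers (r 0.643, rho 0.700, adjusted permutation p = 0.0551 and 0.0310, r 0.444 as deposited) and the B cell markers (r −0.652, rho −0.704, adjusted permutation p = 0.0551 and 0.0310, r −0.639 as deposited). ACO1 did with the B cell markers (r 0.601, rho 0.679, adjusted permutation p = 0.0771 and 0.0368, r 0.906 as deposited). Their r was 0.730, −0.768 and 0.488 without the 2 farthest animals. The part of these cell types in the changes of the 10 genes was not tested.

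**Figure D5:**
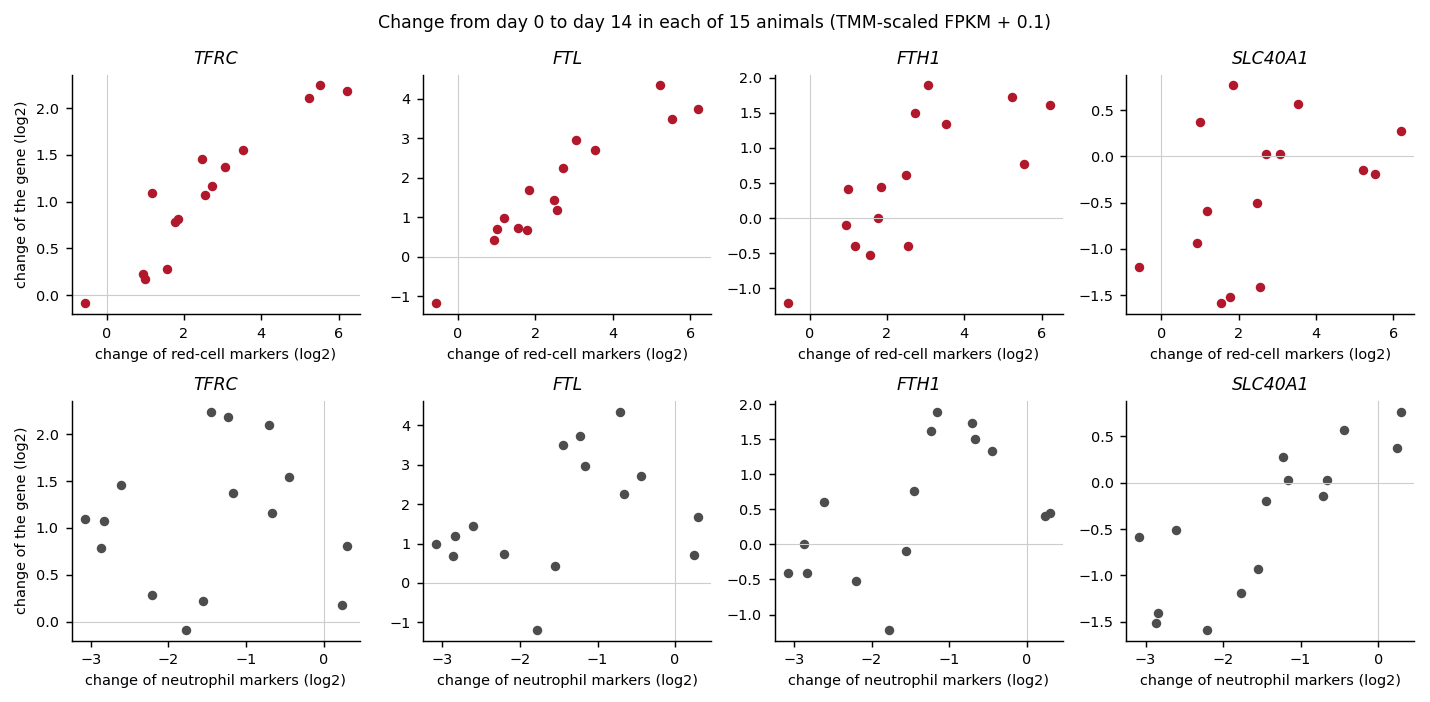
Change from day 0 to day 14 (log2, TMM-scaled FPKM + 0.1) of TFRC, FTL, FTH1 and SLC40A1 against the mean change of red cell markers (top row) and neutrophil markers (bottom row), 1 point for each of 15 animals. TFRC and FTL rise with the red cell markers (r 0.941 and 0.944), and SLC40A1 with the neutrophil markers (r 0.817).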

How the data were processed

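Whole-blood RNA was collected in PAXgene tubes, and stranded libraries were prepared after removal of ribosomal and globin RNA. The authors aligned paired-end reads to Chlorocebus_sabeus 1.1 with STAR, counted fragments with HTSeq and deposited FPKM, 1 table per sample. Because the FPKM are whole multiples of what 1 fragment is worth (100% of values above 0 within 0.05 of a whole number), fragments and totals were recovered and used for the filter (over 0.5 CPM in at least 3 samples), for TMM and for depth. The test was limma 3.58.1 (R 4.3.3) on log2(scaled FPKM + 0.1), which understates the fold of low genes, with 1 mean per time point and no animal term, as the study's methods state none. An adjusted p under 0.05 was a call. Ratios and correlations were computed in Python 3.11.15 with scipy 1.17.1. The limma step was tested on simulated data.

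Numbers pair the samples because each animal gave all 3. After removal of time point means, samples of 1 animal correlated with a mean r of 0.328 across genes and those of different animals with −0.0231, and every animal's mean exceeded 0.1. The 10 genes, the lists and the markers were chosen with earlier results of these data known. Genes named from the wider list were those called with a log2 fold change of at least 1 in size, plus that with the lowest adjusted p in each role group (EXOC6, FLVCR2 and HERC2 were named after their values were seen), and for each of the 10 the 3 most alike genes were taken. Some genes of the marker lists were not used here. P-values of the main limma fit rest on the spread of the 45 samples around their time point means and leave the pairing out. Those of the sign-flip and permutation tests rest on these 15 animals.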

Additional observations from a re-analysis of the deposited data

How the results depend on the processing

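Alternatives were the animal as a replicate block, the RNA integrity number as a covariate, both together, other pseudocounts, other scalings, other filters, limma voom on the recovered fragments and each animal left out. No value of the 10 genes or the ratios reversed past the threshold. Of the 10 iron genes, the number called on day 3 vs. day 0 (3) was 1 with median-of-ratios size factors (12.2% of all genes called) and 1 with no filter (5.08%, against 12.2% with the filter), and ranged from 0 to 3 with each animal left out (7.28% to 12.6%). On day 14 vs. day 3 (1) it was 4 with the replicate block, 0 with the RNA integrity number (limma, 5 of 10 at an unadjusted p under 0.05), 4 without TMM and 2 with genes above 1 FPKM in at least 15 samples (23.7%, 6.05%, 38.4% and 21.2% of all genes), and ranged from 0 to 2 (4.23% to 17.7% of all). On day 14 vs. day 0 (4) it ranged from 3 to 5 (31.5% to 37.3%). Of the wider list, the number called on day 3 vs. day 0 (9) was 14 with the replicate block (19.2% of all genes) and ranged from 7 to 10. On day 14 vs. day 3 (6) it was 11 with the block, 2 with the RNA integrity number, 19 without TMM, 3 with no filter and, in a fit added after the data were seen, 3 without the 4 libraries least like the others, where the shares of all genes called were 23.7%, 6.05%, 38.4%, 5.26% and 9.21%, against 13.4%. It ranged from 2 to 10 with each animal left out, with 2 without animal 2, 3, 8 or 9, 3 without 12 or 14, and 10 without 7. The block changed no other call of the 10 genes than those given beside their values.

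The ratios kept their side of the threshold with 1 or 0.01 added in place of 0.1. With each animal left out, the change of TFRC to SLC40A1 on day 14 vs. day 3 ranged from 0.40 to 0.59, that of SLC25A37 to SLC25A28 on day 14 vs. day 0 from 0.83 to 1.102, and that of IREB2 to ACO1 on day 14 vs. day 3 from 0.15 to 0.24. The causes were not tested. Among the 10 genes depth limits STEAP3 most, which rested on as few as 15 fragments in a library, and in the wider list HEPH rested on as few as 2 and FAM132B on 0. Leaving out 1 animal also means 3 fewer samples, and the smallest p of an exact sign-flip test then doubles.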
